A study of Mus musculus with 6 samples.

Results

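The genes described here encode proteins that cells release against microbes or during an acute-phase response: Lcn2, Slpi, Ltf, Saa3, Ptx3, Chil1, Hp, S100a8 and S100a9. They are 9 of the 24421 genes in the table, taken by their symbols, and all 9 were found. The genes were chosen by function and by their log2 fold changes between untreated and doxycycline libraries, so that difference is given for them as a description and no p-value is given for it. Where the fit over all genes marked one of them as lower, that mark is part of the description and supports nothing. The cells were 4T1-tetL1(GLucAI), a blasticidin-selected population of the mouse breast carcinoma line 4T1 (strain label BALB/cfC3H). All of them carried the Tet-On 3G activator under an EF1α promoter and a bidirectional TRE3G promoter that drives firefly luciferase on one side and a recoded mouse LINE-1 with a Gaussia luciferase retrotransposition reporter on the other. LINE-1 (L1) is a retrotransposon that copies itself through RNA. Of the 6 libraries, 3 came from cells left untreated, whose treatment tag reads Vehicle, and 3 from cells given doxycycline at 400 ng/mL for 48 h. The comparison asks how L1 induction changes transcription, and it has no cells without the cassette, so an effect of doxycycline itself and one of L1 cannot be told apart. Every direction below rests on the labels, because the transcript of the cassette was not analysed here.

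Proteins of this kind act at epithelial surfaces and in the granules of neutrophils, and many are raised by IL-1, IL-17 and IL-6 through the factors NF-κB, C/EBP and STAT3. Lcn2 (lipocalin 2) withholds iron by binding bacterial siderophores, and Ltf (lactotransferrin) binds iron directly. Slpi is a secreted inhibitor of neutrophil proteases that also acts on bacteria. Saa3 is a serum amyloid A made outside the liver in mice, Ptx3 is a long pentraxin that marks microbes for uptake, and Hp (haptoglobin) captures free hemoglobin. S100a8 and S100a9 form calprotectin, which withholds zinc and manganese, and Chil1 is a chitinase-like protein without chitinase activity.

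Total RNA had been depleted of ribosomal RNA before library preparation, and reads were counted per gene. Library totals were 31653464 to 43631312 counts, with overlapping ranges in both groups. Levels are CPM (reads counted for a gene, brought to one library size with TMM-scaled totals), and errors are SD over 3 libraries unless named as SE. A count of 3 equals 0.0683 to 0.0944 CPM, depending on the library, and values under that limit cannot be told from 0 here. The limit covers counting error only. Of 15 epithelial markers, 14 passed the filter on low counts, and keratins Krt18, Krt8 and Krt7 were the highest of them. The summed level of the list was 1971 to 2058 CPM in untreated and 1915 to 2161 CPM in doxycycline libraries. Markers of neutrophils and other myeloid cells summed to 10.6 to 12.6 and 10.1 to 12.5 CPM, most of it from Cd68, a lysosomal protein that other cells also make. Without Cd68 the sums were 1.26 to 1.52 and 1.54 to 1.86 CPM, and Elane, Prtn3, Ctsg, Tyrobp, Laptm5 and Adgre1 had no count in any library. Hepatocyte markers summed to at most 0.267 CPM. In bulk RNA, fewer cells that express a gene and less RNA per cell cannot be told apart.

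The 250 bases before the start of Lcn2, Slpi and Ltf are shown because the fit over all genes marked these 3 as lower in doxycycline libraries. They are RefSeq sequences of GRCm38.p6, read on the gene's own strand, for Lcn2 at chr2:32387740-32387989 (minus strand), for Slpi at chr2:164356508-164356757 (minus strand) and for Ltf at chr9:111019042-111019291 (plus strand). Capitals mark matches to TTGCNNAA, letters of a C/EBP site, or to GGGNNNNNCC, letters of a κB site of NF-κB, on either strand.
Lcn2: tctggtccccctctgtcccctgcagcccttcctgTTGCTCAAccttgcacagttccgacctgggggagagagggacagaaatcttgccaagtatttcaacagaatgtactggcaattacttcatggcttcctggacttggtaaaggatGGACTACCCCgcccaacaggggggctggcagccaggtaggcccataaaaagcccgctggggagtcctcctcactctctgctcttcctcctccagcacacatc
Slpi: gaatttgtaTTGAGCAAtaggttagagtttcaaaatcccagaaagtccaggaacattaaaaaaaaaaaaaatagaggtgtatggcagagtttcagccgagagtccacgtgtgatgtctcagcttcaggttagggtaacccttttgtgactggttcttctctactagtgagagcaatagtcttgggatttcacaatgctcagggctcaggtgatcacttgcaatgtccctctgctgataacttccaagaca
Ltf: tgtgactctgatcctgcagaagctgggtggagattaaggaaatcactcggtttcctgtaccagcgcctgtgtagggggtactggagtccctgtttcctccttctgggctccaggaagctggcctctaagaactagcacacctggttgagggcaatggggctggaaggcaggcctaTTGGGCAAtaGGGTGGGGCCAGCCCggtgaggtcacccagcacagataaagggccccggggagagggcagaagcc

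In Lcn2 the C/EBP letters stood at positions -216 to -209 and the κB letters at -102 to -93, counted back from -1 at the last base before the start. Slpi held the C/EBP letters at -241 to -234 and no κB match. In Ltf the C/EBP letters stood at -75 to -68, and overlapping κB matches ran from -65 to -51. RefSeq promoters were found for 8 of the 9 genes, all but Hp. The C/EBP letters were present in 6 of these 8 windows (Lcn2, Ltf, Slpi, Ptx3, Saa3 and S100a9) and in 9.56% of the 32851 mouse promoter windows of the same length. The Saa3 window, chr7:46715677-46715926 (minus strand), lies inside the gene interval given below, so it does not precede the outermost start of Saa3. The κB letters were present in Lcn2, Ltf and Chil1, and in 45.8% of all windows. The AP-1 letters TGANTCA and the STAT letters TTCNNNGAA, searched on both strands, were in none of the 8 windows and in 6.75% and 7.02% of all. TATAAA on the gene's strand was in S100a8 alone, at -30 to -25, and in 7.59% of all. A match of letters does not show that a factor binds. The motifs were chosen with earlier results of these data known, so nothing is read from these shares.

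Lcn2 and Slpi were the abundant members of the set, and the other genes stood near or under 2 CPM. Per kb of exon, Slpi had 87.9 ± 4.62 CPM in untreated libraries, place 386 of 16201 genes with a count (top 2.38%), and Lcn2 had 36.0 ± 2.10, place 1189 (top 7.34%). Next came S100a8 with 1.05 ± 0.333, Ltf with 0.563 ± 0.0352, Saa3 with 0.345 ± 0.0861, Chil1 with 0.344 ± 0.0209, Ptx3 with 0.211 ± 0.0312 and Hp with 0.0545 ± 0.0538 CPM per kb. Saa3 and Chil1 did not differ beyond their spread, and the libraries of the other neighbours in this order did not overlap, although Hp and S100a9 both reached values under the limit of 3 counts. In doxycycline libraries Chil1 (0.215 ± 0.0236), Saa3 (0.208 ± 0.0685) and Ltf (0.206 ± 0.00634) could not be ordered, since their ranges overlapped, so Ltf no longer stood above the other two. With the longest transcript in place of all exons, the untreated mean was 0.524 for Chil1 and 0.409 CPM per kb for Saa3.

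**Figure D1:**
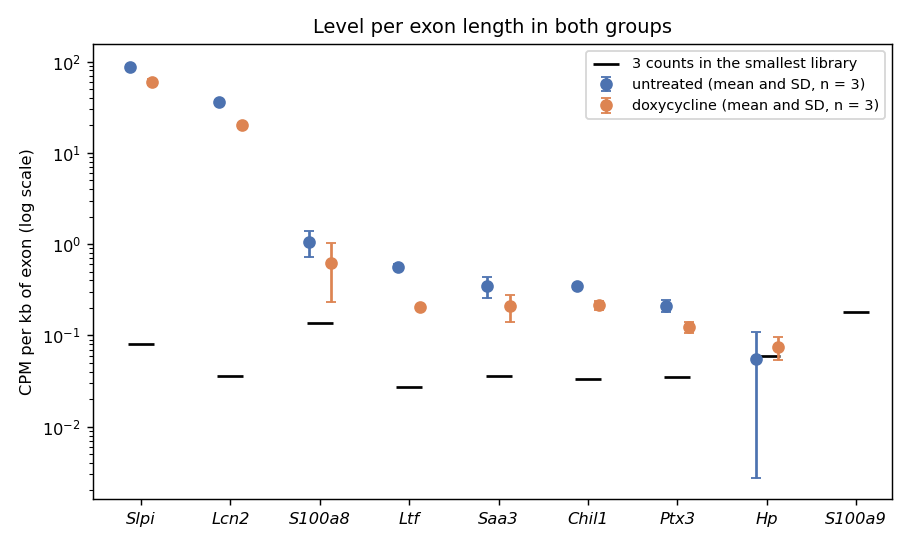
Level per kb of exon (CPM per kb, log axis) of the 9 genes in untreated and doxycycline libraries, as mean and SD over 3 libraries, with the level of 3 counts in the smallest library as a black line. Slpi and Lcn2 lie far above the rest, Hp lies at the line, and S100a9 has no point because it had no count.

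All 9 genes together summed to 196 to 213 CPM in untreated and 119 to 134 CPM in doxycycline libraries. Lcn2 and Slpi gave 97.2 to 98.2% of that sum in every library. The sum thus describes these 2 genes, and the other 7 are described one by one.

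Of the genes that withhold iron, both Lcn2 and Ltf were lower in doxycycline libraries. Lcn2 (chr2:32384637-32387739, protein-coding) had 100.3, 89.4 and 93.4 CPM in untreated replicates 1 to 3, and 54.7, 54.8 and 48.1 CPM in doxycycline replicates 1 to 3. All 3 doxycycline libraries lay below all untreated ones, and their mean was 55.7% of the untreated mean (94.4 ± 5.50 against 52.5 ± 3.81 CPM). The log2 fold change was -0.85 (SE 0.06). Ltf (chr9:111019292-111042766, protein-coding) had 83, 62 and 78 counts in untreated and 22, 30 and 27 counts in doxycycline libraries, or 1.89, 1.86 and 2.08 against 0.692, 0.735 and 0.705 CPM. For Ltf the groups did not overlap, though the counts are small. Its mean was 36.6% of the untreated mean, with a log2 fold change of -1.45 (SE 0.27), the lowest of the set.

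Slpi (chr2:164354070-164356507, protein-coding), the protease inhibitor, had 107, 106 and 97.4 CPM in untreated and 67.2, 76.9 and 67.2 CPM in doxycycline libraries. The groups did not overlap. Its mean was 67.9% of the untreated mean (104 ± 5.45 against 70.4 ± 5.62 CPM), with a log2 fold change of -0.56 (SE 0.06). Slpi overlaps the microRNA gene Mir7678, which had at most 9 counts in a library. The ratio of Lcn2 to Slpi in CPM was 0.934, 0.842 and 0.958 in untreated and 0.814, 0.712 and 0.717 in doxycycline libraries. This ratio is given as description only, because both genes were chosen with this contrast known, and it was not tested.

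Chil1 (chr1:134182156-134190031), the chitinase-like protein, had 1.02, 0.959 and 0.908 CPM in untreated and 0.566, 0.563 and 0.679 CPM in doxycycline libraries, from 18 to 45 counts. The groups did not overlap, and the log2 fold change was -0.67 (SE 0.33). Ptx3 (chr3:66219887-66225806), the pentraxin, had 22, 22 and 20 counts in untreated libraries and 12 in each doxycycline library, or 0.501, 0.659 and 0.534 against 0.377, 0.294 and 0.313 CPM. These groups did not overlap either, with a log2 fold change of -0.78 (SE 0.42). Ptx3 overlaps Veph1, which had 6 to 10 counts in every library, and whether the counting used strand is not given in the sources used here.

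Saa3 (chr7:46711998-46719615), the serum amyloid A, had 38, 38 and 26 counts in untreated and 12, 21 and 28 in doxycycline libraries, or 0.865, 1.14 and 0.694 against 0.377, 0.514 and 0.731 CPM. Doxycycline replicate 3 lay above untreated replicate 3, so the groups overlapped. The log2 fold change was -0.71 (SE 0.37). Saa3 overlaps the predicted gene Gm31882.

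The calprotectin subunits were not found as a pair. S100a8 (chr3:90669071-90670034) had 34, 16 and 35 counts in untreated and 12, 8 and 28 in doxycycline libraries, or 0.774, 0.480 and 0.935 against 0.377, 0.196 and 0.731 CPM. The groups overlapped, and the log2 fold change was -0.76 (SE 0.45). It was -1.38 without doxycycline replicate 3 and -0.38 without doxycycline replicate 2. S100a9 (chr3:90692630-90695721) had no count in any of the 6 libraries, which allows a level of up to 0.0944 CPM in the smallest one. It was not tested. Calprotectin is abundant in neutrophils, and the neutrophil protease genes Elane, Prtn3 and Ctsg were likewise at 0. Other neutrophil markers were not at 0, since Camp had 7 to 24 and Ngp 1 to 8 counts in a library.

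Hp (chr8:109575128-109579172), the haptoglobin gene, had 2, 1 and 7 counts in untreated and 5, 4 and 4 in doxycycline libraries. It was under the limit of 3 counts in 2 untreated libraries and was not tested. A difference was not detectable at this depth.

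**Figure D2:**
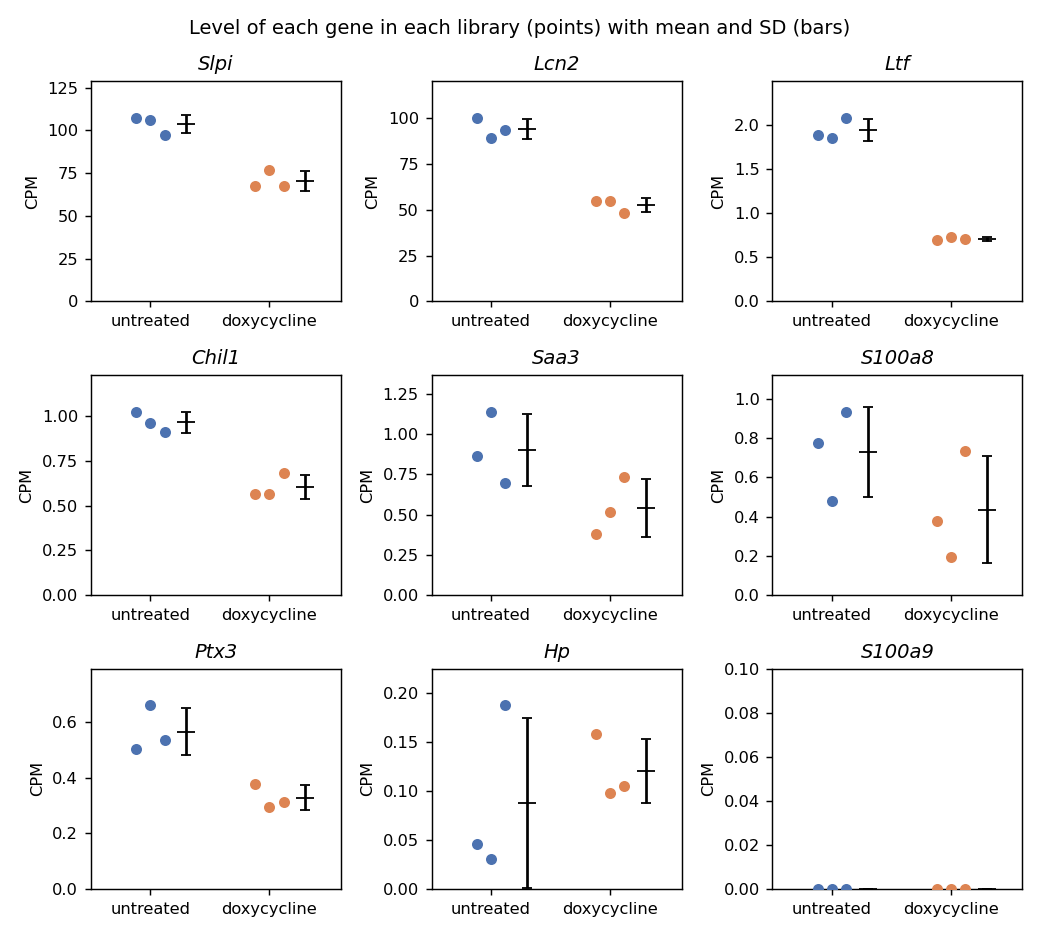
CPM of the 9 genes in each of the 3 untreated (blue) and 3 doxycycline (orange) libraries, with mean and SD as black bars and a separate linear axis from 0 for each gene. The groups stand apart for Slpi, Lcn2, Ltf, Chil1 and Ptx3, overlap for Saa3, S100a8 and Hp, and S100a9 is at 0 throughout.

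Of the 9 genes, 7 passed the filter on low counts, and all 7 had a log2 fold change under 0, between -1.45 and -0.56. The median over all 13084 genes tested was 0.00, and 49.2% of them lay under 0. The edgeR quasi-likelihood fit over all genes tested, with Benjamini-Hochberg adjustment and a threshold of 0.05, marked 3 of the 7 as lower (Lcn2, Ltf and Slpi) and none as higher, where 2.16% of all genes tested were called lower and 0.925% higher. For 5 of the 7 (those 3, Chil1 and Ptx3) all doxycycline libraries lay below all untreated ones, against 11.1% of all genes tested. Since the set was chosen with this contrast known, nothing is read from these counts. The other 4 genes had SEs of 0.33 to 0.45, against 0.06 for Lcn2 and Slpi. With each library left out in turn, the log2 fold change lay between -0.88 and -0.79 for Lcn2, between -1.47 and -1.39 for Ltf and between -0.63 and -0.52 for Slpi. It lay between -0.77 and -0.62 for Chil1, between -0.88 and -0.66 for Ptx3 and between -0.99 and -0.52 for Saa3.

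**Figure D3:**
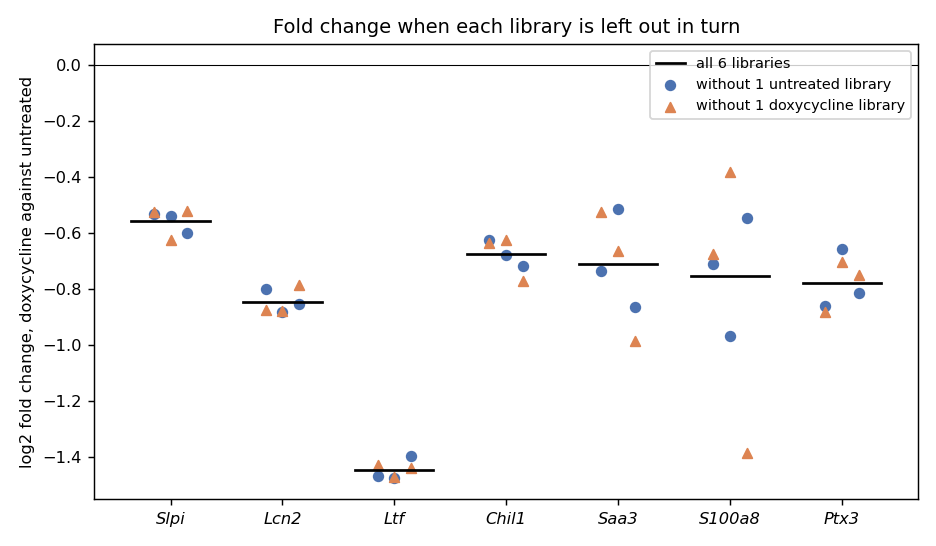
Log2 fold change (doxycycline against untreated) of the 7 tested genes with all 6 libraries (black line), without 1 untreated library (blue circles) and without 1 doxycycline library (orange triangles). The points of Slpi, Lcn2 and Ltf lie close to their lines, and those of S100a8 run from -1.38 to -0.38.

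Other acute-phase genes were then examined as a list of 32. This list and those below were written with earlier results of these data known. The rule for naming called genes also uses the size of their change, so counts and adjusted p-values are given as description. No library held a count of 12 of the 32 genes, among them the liver proteins Saa1, Crp, Orm1 and the fibrinogen chains Fga, Fgb and Fgg. Of the 8 tested, 5 were lower and none was higher, against 2.16% and 0.925% of all genes tested. The median log2 fold change was -0.51, and 0.00 over all genes tested. Complement component C3 had 273, 265 and 285 CPM in untreated and 183, 206 and 176 CPM in doxycycline libraries, or -0.54 on the log2 scale (SE 0.05, edgeR adjusted p 2.2e-06). The copper-carrying ferroxidase Cp (ceruloplasmin) had 243, 240 and 235 against 176, 175 and 179 CPM (-0.44, SE 0.04, edgeR adjusted p 2.2e-06). Neither gene overlapped between groups. The metal-binding Mt2 changed by -0.79 (SE 0.08, edgeR adjusted p 4.1e-06), and Cd14, a co-receptor for lipopolysaccharide, by -0.48 (SE 0.09, edgeR adjusted p 0.0048). The Cd14 call was lost without untreated replicate 1 (edgeR adjusted p 0.0656). The fifth was Mt1 (-0.40), which lies outside that rule and was also named with its value known. Complement factor Cfb, not called, stood at 0.52 on the log2 scale (SE 0.16, edgeR adjusted p 0.084), opposite in sign to C3.

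Of 30 other secreted antimicrobial genes, 15 had no count in any library, including the defensins Defb1 and Defb14 and the lectins Reg3b and Reg3g. Of the 8 tested, 3 were lower and 1 was higher, against 2.16% and 0.925% of all genes tested. The median log2 fold change was -0.34. Nos2, the inducible nitric oxide synthase, which is not itself secreted, had 21.5, 27.1 and 28.7 CPM in untreated and 10.8, 11.4 and 7.97 CPM in doxycycline libraries (-1.35, SE 0.12, edgeR adjusted p 2.2e-06). Ccl20, a chemokine with antimicrobial activity, had 15.9 ± 0.879 against 11.5 ± 0.207 CPM (-0.47, SE 0.09, edgeR adjusted p 0.0054). The third was the peptide hormone Adm, with a mean of 0.864 CPM and a log2 fold change of -1.91 (SE 0.44). Adm lies outside the naming rule and was also named with its value known. The Adm call was lost without untreated replicate 1, untreated replicate 3 or doxycycline replicate 3, with edgeR adjusted p of 0.0686, 0.167 and 0.133. Wfdc2, which shares the whey acidic protein fold of Slpi, had 417 to 460 CPM in untreated and 421 to 442 CPM in doxycycline libraries (-0.03, SE 0.05, edgeR adjusted p 0.79).

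**Figure D4:**
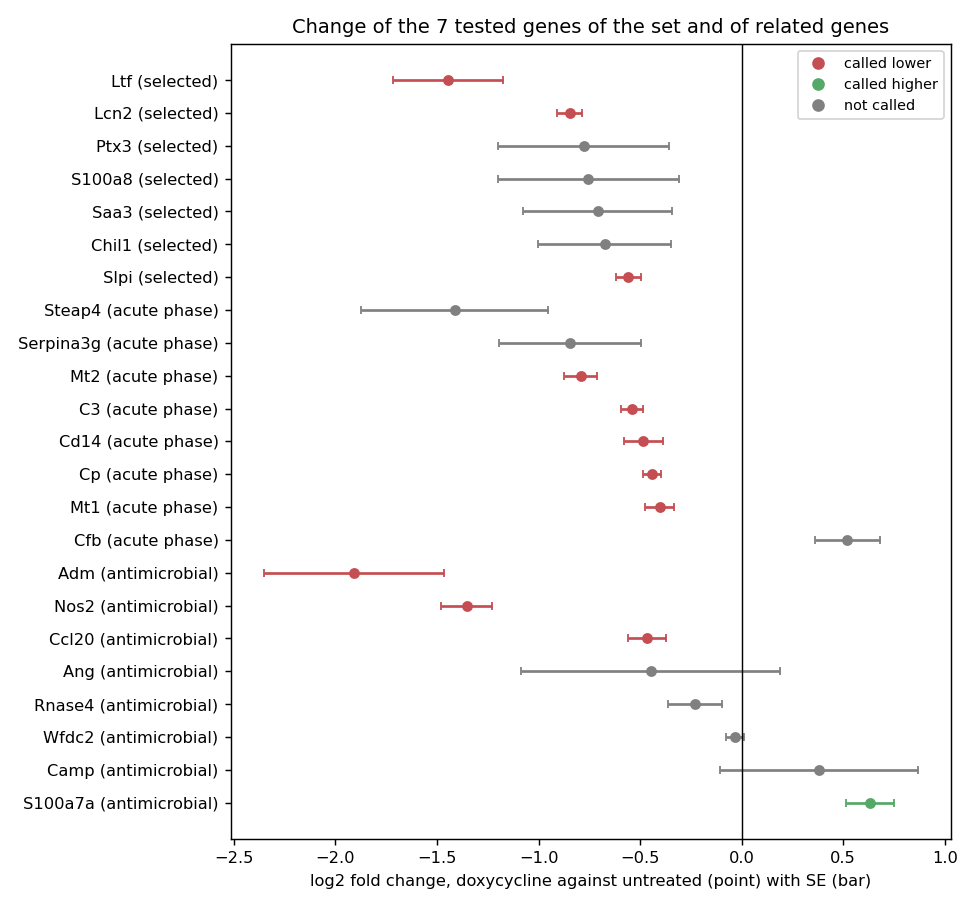
Log2 fold change with SE (doxycycline against untreated, edgeR) of the 7 tested genes of the set, the 8 other acute-phase and the 8 other antimicrobial genes tested, red where called lower, green where called higher, gray where not called. The 7 selected genes lie between -1.45 and -0.56, and S100a7a is the one gene called higher.

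Among the genes of the same protein families, 43 in all, 16 were tested, of which 2 were lower and 1 was higher. Over all genes tested, 2.16% were lower and 0.925% higher. The median log2 fold change of this list was -0.07. S100a7a, which is also counted in the antimicrobial list, had 6.40, 6.15 and 5.85 CPM in untreated and 9.15, 8.96 and 10.4 CPM in doxycycline libraries (0.63, SE 0.12, edgeR adjusted p 0.0033). It is the nearest tested gene before S100a8 on chromosome 3, and S100a8 had a log2 fold change of the other sign with overlapping groups. In the same cluster S100a4, a calcium-binding protein tied to metastasis, had 579, 513 and 542 against 436, 388 and 410 CPM (-0.40, SE 0.05, edgeR adjusted p 4.9e-05). S100a16 changed by -0.48 (SE 0.10, edgeR adjusted p 0.0067), and without untreated replicate 2 it was no longer called (edgeR adjusted p 0.0570). S100a6, with a mean of 1096 CPM, and S100a11, with 572 CPM, were not called (-0.06 and -0.08). The nearest tested genes on either side of the 9 genes were 16 different genes outside the set, of which 2 were called, S100a7a and Sdc4, the latter after Slpi (-0.18, edgeR adjusted p 0.029).

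Receptors, partners and targets of these proteins were a list of 31 genes, of which 17 were tested, 1 was lower and none higher. Over all genes tested, 2.16% were lower and 0.925% higher. The median log2 fold change of this list was -0.13. The gene called was Mmp9, a secreted gelatinase that Lcn2 binds, with 74.7, 78.9 and 80.6 CPM in untreated and 51.2, 53.0 and 45.9 CPM in doxycycline libraries (-0.64, SE 0.06, edgeR adjusted p 2.0e-06). The groups did not overlap. Slc22a17, a receptor for Lcn2, did not pass the filter on low counts, and Elane, Ctsg and Prtn3, the proteases that Slpi and its relatives meet in neutrophils, had no count. Anxa2, Cd44 and Lrp1 were the highest of the list and were not called (-0.10, 0.05 and -0.13). The count of 1 rose to 6 without doxycycline replicate 2 and to 2 without untreated replicate 1 or without doxycycline replicate 1, where 1 was lower and 1 higher.

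Cytokines, receptors and factors of the pathways that induce such genes were a list of 39, which also holds inhibitors such as Nfkbia. Of the 33 tested, 7 were lower and none higher, against 2.16% and 0.925% of all genes tested. The median log2 fold change was -0.13, and a lower level in this list is not always that of an inducer. Il17rd, a receptor of the IL-17 family, had 3.19, 4.02 and 3.85 CPM in untreated and 1.70, 1.84 and 1.59 CPM in doxycycline libraries (-1.10, SE 0.19, edgeR adjusted p 0.0017). The other 6 differences were small. Nfkbia, an inhibitor of NF-κB and one of its targets, changed by -0.33 (SE 0.06, edgeR adjusted p 0.0036), the TNF receptor Tnfrsf1b by -0.33 (SE 0.07, edgeR adjusted p 0.011) and the RNase Zc3h12a by -0.31 (SE 0.08, edgeR adjusted p 0.022). Nfkbiz, a nuclear cofactor of NF-κB needed for Lcn2 induction, had 88.8 ± 3.43 against 74.4 ± 5.17 CPM (-0.25, SE 0.06, edgeR adjusted p 0.014). Cebpb, a C/EBP factor, had 58.4, 56.0 and 52.8 against 50.1, 47.0 and 45.4 CPM (-0.23, SE 0.06, edgeR adjusted p 0.040). Il1r1, the receptor for IL-1, was the seventh (-0.29, edgeR adjusted p 0.046). Il1r1 lies outside the naming rule and was also named with its value known.

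With libraries left out, the count of 7 was 3 without untreated replicate 1, untreated replicate 2 or doxycycline replicate 3, and 2 without untreated replicate 3. Without doxycycline replicate 1 it was 7 lower and 1 higher, and without doxycycline replicate 2 it was 8 lower. Of the 6 fits that left out a library, Zc3h12a and Il1r1 lost the call in 5, Cebpb in 4 and Nfkbiz and Tnfrsf1b in 3, whereas Il17rd kept it in all 6. The log2 fold changes in these fits stayed under 0, between -0.39 and -0.23 for Zc3h12a, -0.36 and -0.24 for Il1r1, -0.27 and -0.20 for Cebpb, -0.31 and -0.22 for Nfkbiz and -0.41 and -0.29 for Tnfrsf1b. By limma voom 6 of the 7 were called, all but Il1r1 (limma adjusted p 0.0590). Stat3 (0.06), Rela (-0.03), Nfkb1 (-0.08), Il17ra (0.10), Socs3 (-0.03), Tlr4 (-0.26) and Cebpd (-0.32) were not called. Il6 and Il1b were at most 0.592 and 0.566 CPM in a library, and Il17a had no count.

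**Figure D5:**
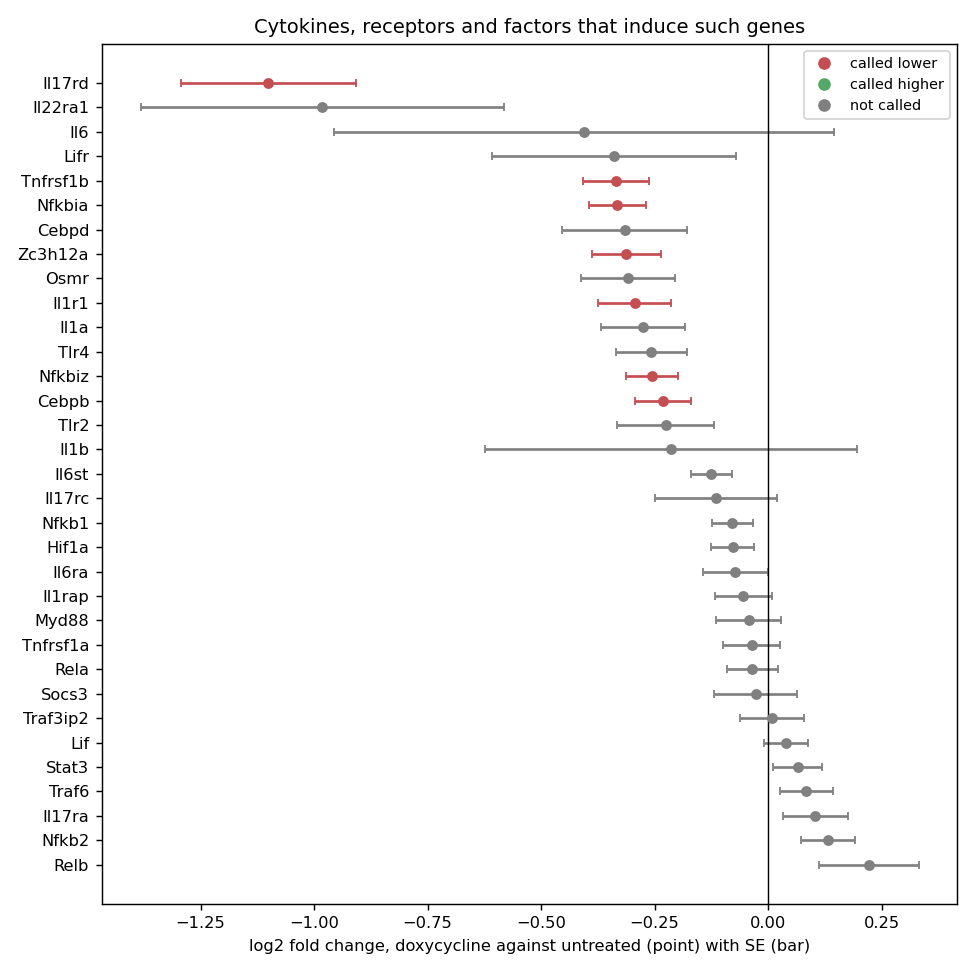
Log2 fold change with SE (doxycycline against untreated, edgeR) of the 33 tested cytokines, receptors and factors of the inducing pathways, inhibitors included. Genes called lower are red and those not called are gray. Il17rd has the lowest value, -1.10, and the other genes called lie between -0.33 and -0.23.

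Cell type markers that moved with these genes were few. Krt19 was the one epithelial marker called (-0.31, edgeR adjusted p 0.0078), and none of the 3 myeloid markers tested was. The median log2 fold change of these 3 was 0.23, with 1 of them under 0. Without Cd68 the myeloid list summed to 1.26 to 1.52 CPM in untreated and 1.54 to 1.86 CPM in doxycycline libraries. Of 10 fibroblast markers 3 were tested, and Pdgfra, a growth factor receptor, was lower (35.2 to 37.6 against 27.3 to 28.6 CPM, -0.40 on the log2 scale, edgeR adjusted p 0.00095). The fibroblast list summed to 36.0 to 38.9 and 28.6 to 29.9 CPM with Pdgfra, and to 0.801 to 1.32 and 1.23 to 1.30 CPM without it, and its defining markers Col3a1, Lum and Thy1 were at 0. The part of these markers in the values above was not tested.

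For the 3 members with the highest mean, the genes of at least 10 CPM whose levels followed them most closely over the 6 libraries were sought among 8781 genes (8782 for Ltf), by Pearson's r of log2(CPM + 0.1). For Slpi they were Grina (r 0.999), Lipa (0.995) and Pfkfb3 (0.993). For Lcn2 they were Arhgap18 (0.998), Rab27b (0.996) and Spp1 (0.994), and for Ltf they were Cast (0.998), Ttyh2 (0.995) and Lama3 (0.995). These r values describe 6 libraries in 2 groups that share their depth and scaling, and they largely follow the difference between the groups.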

How the data were processed

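RNA-seq libraries of 3 untreated and 3 doxycycline samples were analysed. The authors aligned reads with STAR to GRCm38 (mm10) and deposited raw counts per gene from featureCounts (Subread 1.6.2 and bcl2fastq 2.20 in the submitters' processing notes), with replicates kept apart. How mates, strand and multiply mapped reads were counted is not given in the sources used here. Of values from 1 to 10, 61.8% were even, against 49.9% of values over 100, so mates may have been counted singly and counting intervals may be too narrow.

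Groups came from sample titles, and 0 of the 6 columns were left unmatched. The study describes triplicates, but the labels do not name separate cultures, so p-values measure the spread between these libraries. No pair of replicates agreed within sampling noise. edgeR 4.0.16 in R 4.3.3 (TMM, filterByExpr, robust quasi-likelihood test, two-sided, group as the only term) tested 13084 of 24421 genes, 6760 of which had no count. SE was obtained by dividing the size of a log2 fold change by the root of its F statistic. Scripts were tested on simulated counts. Exon lengths came from GENCODE vM21, coordinates and promoters from RefSeq GRCm38.p6, counted from 1.

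The members, lists, naming rule and motifs were chosen with earlier results of these data known. From each list the text names up to 4 called genes with the largest change and at least 1 CPM, the 3 highest genes and set regulators. Counts of called genes (members, gene lists without the cell type markers, whole table) and the log2 fold changes of 26 genes were recomputed. Alternatives were size factors of DESeq2, upper quartile or library size scaling, no filter and a minimum of 10 counts per library. DESeq2 1.42.0, limma 3.58.1 voom, a replicate block and each library left out in turn were also used. The summed level was recomputed only with the longest transcript and without each untreated library. Values of other genes, marker sums and correlations were not recomputed. No batch was given in the labels.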

Additional observations from a re-analysis of the deposited data

How the results depend on the processing

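The fit marked Lcn2, Ltf and Slpi as lower under every alternative run, which supports nothing since the genes were chosen by this contrast in these libraries. None of the 26 genes recomputed (the tested members and the called genes named from the 5 gene lists, cell type markers apart) changed sign. Over the whole table, 283 genes were called lower and 121 higher. Without a filter these counts were 439 and 210, and leaving out each library in turn gave 116 (without untreated replicate 3) to 487 (without doxycycline replicate 2) lower and 44 to 269 higher, for the same 2 libraries. Of the other acute-phase genes 5 were called, all lower, against 6 lower and 1 higher with no filter. That count was 4 without untreated replicate 1 and 6 without doxycycline replicate 2, all lower. Among the receptors, partners and targets 1 gene was called, against 4 with no filter, 2 by the DESeq2 Wald test and 1 to 6 in the leave-out fits. Among the genes of the inducing pathways 7 were called, against 6 by limma voom and 2 to 8 in the leave-out fits. Without doxycycline replicate 1 these were 7 lower and 1 higher. The cause was not tested, beyond the fewer libraries in those fits. The summed level of the 9 genes per kb in untreated libraries was 126 CPM per kb by all exons and 191 by the longest transcript, because that length is shorter. With the replicate number as a replicate block, 300 genes were called lower and 118 higher, and 3 members; no call among the 26 genes changed. The deviations of same-numbered libraries had correlations of -0.04, -0.004 and 0.02, and no library correlated best with its own number in both directions. The check showed no pairing, but it cannot exclude a weak one or one limited to few genes. DESeq2 gave no adjusted p for Saa3, Ptx3, S100a8, Chil1 and Adm, and S100a8 and Adm were absent from the fit with at least 10 counts in every library. Saa3, Ptx3, S100a8 and Chil1 had 8 to 45 counts in a library.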
